A study of Mus musculus with 6 samples.

Results

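The uncoupling proteins Ucp1 and Ucp3 were followed in mouse heart RNA on 6 arrays. They were selected on their annotation, as every probe set that carries the symbol Ucp1, Ucp2 or Ucp3 and no other, and the choice of the family was made with results of these arrays known. The rule gave 1 probe set for Ucp1 (1418197_at) and 2 for Ucp3 (1420657_at and 1420658_at), that is 2 genes of 18193 genes with a probe set of a single symbol. No probe set met the rule for Ucp2, which was not analysed here. Because earlier results had shown how these genes differ between the groups, their levels and differences are given as a description with no test.

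RNA came from whole heart tissue of 3 groups with 2 arrays each. The first group was apoE-deficient mice on the B6 background that were given rosiglitazone (30 mg/kg/d) from 6 months of age over 2 months, and whose hearts the labels call failing. The second was untreated apoE-deficient mice on the same background, and the third was untreated, non-transgenic B6 mice. All mice were 8 months old and had free access to the same chow, with 7% fat and 0.15% cholesterol, so that no group was free of that diet. Rosiglitazone, used against diabetes, is an agonist of PPAR gamma, the nuclear receptor of adipocyte formation, and no group of treated B6 mice is part of the design. Whether a group's 2 arrays stand for 2 animals is not in the labels, so the spread behind the p-values may be technical.

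Uncoupling proteins are carriers of the inner mitochondrial membrane. Ucp1 is the heat-producing protein of brown and beige adipocytes: it lets protons return to the matrix without making ATP when fatty acids activate it. Ucp3 is found mainly in skeletal muscle, brown fat and heart, where its transcript follows fatty acid supply through PPAR alpha and PPAR delta, and its exact function is still debated. Both genes are known targets of PPAR receptors in mouse, which bind DNA as partners of RXR receptors.

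The promoters of the 2 genes are shown because both are known targets of the receptor family that the drug acts on. Each line gives the 250 bases before the annotated start in RefSeq, build GRCm38.p6, plus strand, 5′ to 3′. Capitals mark AGGTCA, the half-site of PPAR and RXR receptors, which was searched on both strands.
Ucp1, chr8:83290098-83290347: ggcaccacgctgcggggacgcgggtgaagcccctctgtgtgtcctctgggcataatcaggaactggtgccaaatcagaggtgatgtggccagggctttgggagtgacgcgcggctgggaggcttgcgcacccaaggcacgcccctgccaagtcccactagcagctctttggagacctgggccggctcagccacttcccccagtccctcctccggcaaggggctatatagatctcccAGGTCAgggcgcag
Ucp3, chr7:100472741-100472990: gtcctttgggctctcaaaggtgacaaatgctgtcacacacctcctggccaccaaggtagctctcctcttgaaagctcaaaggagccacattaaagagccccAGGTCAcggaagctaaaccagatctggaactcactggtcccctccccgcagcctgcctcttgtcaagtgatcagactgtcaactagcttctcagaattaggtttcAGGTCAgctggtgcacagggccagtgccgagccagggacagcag

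The Ucp1 window held AGGTCA once, 14 to 9 bases before the start. The Ucp3 window held it at 2 places, 149 to 144 and 44 to 39 bases before the start. Of 32851 mouse promoter windows of the same length, 14% held AGGTCA on either strand, so a match is common. Neither window held 2 such half-sites in direct repeat 1 base apart, the arrangement that PPAR and RXR pairs prefer, which 0.0335% of the windows held. Neither held the TATA box letters TATAAA (12.4% of windows) or the cyclic AMP response element TGACGTCA (1.55% of windows), both searched on both strands. Only these exact letters were searched. The Ucp1 window does hold the similar run tatatag shortly before its AGGTCA, so the search does not show that it lacks a TATA box. The known enhancer of mouse Ucp1, with its PPAR site, lies farther upstream than this window. A match is a description of the letters and does not show binding.

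Signals in the deposited table were not scaled between arrays. The 2%-trimmed mean signal of treated arrays was 341 and 263, that of untreated apoE-deficient arrays 126 and 130 and that of B6 arrays 175 and 149, so overall brightness moved with the groups. Values below are therefore quantile-normalized signals, and levels are log2(normalized signal + 11.1). This scale understates changes of dim probe sets. Apoe, the gene made inactive in the mutant mice, had log2 levels of 6.20 and 6.25 on treated arrays, 5.24 and 6.29 on untreated apoE-deficient arrays and 11.91 and 11.86 on B6 arrays, in the direction the labels give. With 6 arrays, precision is limited by their number. Heart muscle markers such as the myosin chain Myh6 and troponin T Tnnt2 lay above a log2 level of 14 on every array.

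Ucp1 was a bright transcript on treated arrays, low in the signal range on 3 of the other arrays and in the middle of it on B6 replicate 1. Its normalized signal was 6196 and 6243 on treated arrays, 3.151 and 4.811 on untreated apoE-deficient arrays, and 42.44 and 7.521 on B6 arrays. Both treated arrays stood far above the other 4, and the groups did not overlap. Within its own array the probe set ranked at the 99.02th and 99.03th percentile of all non-control probe sets on treated arrays, at the 9.936th and 14.48th on untreated apoE-deficient arrays, and at the 52.98th and 19.68th on B6 arrays. The separation is already present in the deposited signals before any scaling, which were 9243 and 7626 on treated arrays, 2.201 and 3.408 on untreated apoE-deficient arrays, and 36.44 and 5.555 on B6 arrays.

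On the log2 scale the Ucp1 level averaged 12.605 ± 0.008 on treated arrays, 3.913 ± 0.112 on untreated apoE-deficient arrays and 4.981 ± 1.077 on B6 arrays (SD, n = 2 each). The difference in log2 level was 8.69 ± 0.39 for treated minus untreated apoE-deficient hearts (SE from limma), the largest in size among the 27022 tested probe sets. Treated minus B6 hearts gave 7.62 ± 0.39, the second largest. Ucp1 passed the filter on dim probe sets only through the treated arrays, so that a large difference was built into its passing. Detection calls were not used here, and the size on the log2 scale depends on the pseudocount, 10.31 with 1 and 7.44 with 32 for treated minus untreated apoE-deficient hearts.

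Between the untreated groups Ucp1 was dim, and the difference rested on 1 B6 array. Untreated apoE-deficient minus B6 hearts gave -1.07 ± 0.39 in log2 level, but this was -1.83 without B6 replicate 2 and -0.31 without B6 replicate 1. The neighbouring levels of untreated apoE-deficient and B6 hearts therefore do not differ clearly beyond their spread. The order of the groups was treated, B6, untreated apoE-deficient.

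**Figure D1:**
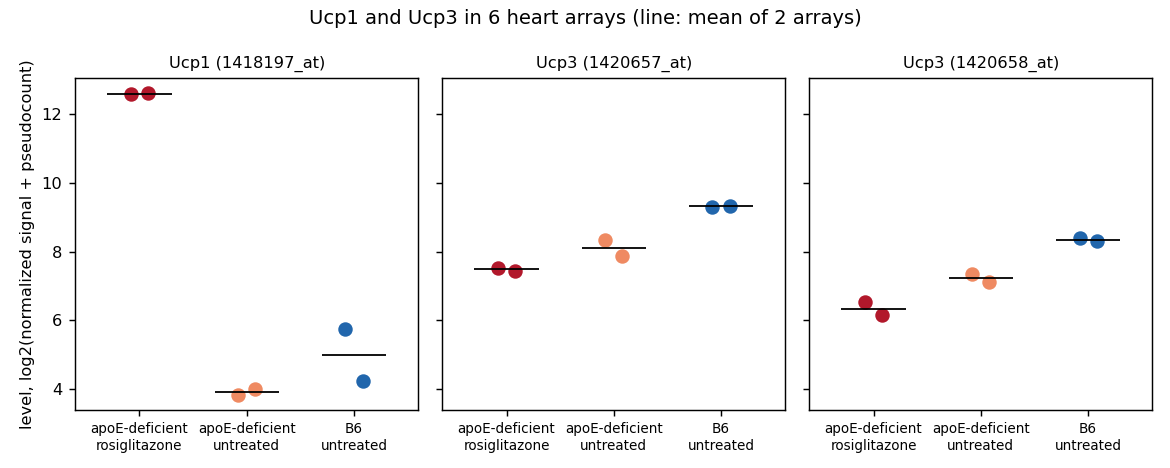
Log2 level (normalized signal plus the pseudocount) of the Ucp1 probe set and both Ucp3 probe sets, with 1 point per array and a line at the mean of the 2 arrays of a group. Ucp1 averages 12.605 on treated arrays, 3.913 on untreated apoE-deficient arrays and 4.981 on B6 arrays, while both Ucp3 probe sets step up from treated to untreated apoE-deficient to B6 arrays.

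Ucp3 ran the other way, lowest in treated hearts and highest in B6 hearts. Its brighter probe set had normalized signals of 174.3 and 163.7 on treated arrays, 316.3 and 221.8 on untreated apoE-deficient arrays, and 623.7 and 634.6 on B6 arrays. The second probe set had 80.72 and 59.66 on treated arrays, 151.9 and 126.6 on untreated apoE-deficient arrays, and 325.1 and 304.9 on B6 arrays. For both probe sets no array of one group reached into the range of another. The widest spread within a group was that of the brighter probe set between the 2 untreated apoE-deficient arrays.

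Log2 levels of the brighter Ucp3 probe set averaged 7.49 ± 0.06 on treated arrays, 8.11 ± 0.35 on untreated apoE-deficient arrays and 9.32 ± 0.02 on B6 arrays (SD, n = 2 each). Those of the second averaged 6.33 ± 0.27 on treated arrays, 7.23 ± 0.17 on untreated apoE-deficient arrays and 8.35 ± 0.06 on B6 arrays. Untreated apoE-deficient minus B6 hearts gave a log2 difference of -1.21 ± 0.15 for the brighter probe set and -1.12 ± 0.17 for the second (SE), a ratio of mean normalized signals of 0.428 and 0.442. Treated minus B6 hearts gave -1.83 ± 0.15 and -2.02 ± 0.17, ratios of 0.269 and 0.223.

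The step between treated and untreated apoE-deficient hearts was smaller. It was -0.62 ± 0.15 in log2 level for the brighter Ucp3 probe set and -0.89 ± 0.17 for the second, ratios of 0.628 and 0.504. Leaving out untreated apoE-deficient replicate 1 made the first of these -0.37. Without any scaling between arrays the sign turned, to 0.67 for the brighter probe set and 0.34 for the second. In that setting the median of all tested probe sets was itself 1.14, and relative to that median the 2 probe sets stood at -0.46 and -0.79, against -0.60 and -0.87 with quantile normalization. Every gene named below as falling in treated against untreated apoE-deficient hearts also turned sign or, for Acot1, lost its call without scaling. The 3 comparisons share arrays and are not independent of each other. The 2 Ucp3 probe sets followed each other over the 6 arrays (Pearson r = 0.982, n = 6, a description of 1 transcript on the same arrays).

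Over all tested probe sets, 28.6% had both treated arrays above both untreated apoE-deficient arrays and 31.4% had them below. For untreated apoE-deficient against B6 arrays 25.9% lay below with no overlap. For treated against B6 arrays 26.4% lay above and 31.1% below. A lack of overlap with 2 arrays a group is thus common, and nothing about Ucp1 or Ucp3 is read from it. By size, the Ucp3 difference ranked 4320th (brighter probe set) and 1751st (second) of 27022 for treated minus untreated apoE-deficient hearts, 379th and 516th for untreated apoE-deficient minus B6 hearts, and 135th and 104th for treated minus B6 hearts.

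**Figure D2:**
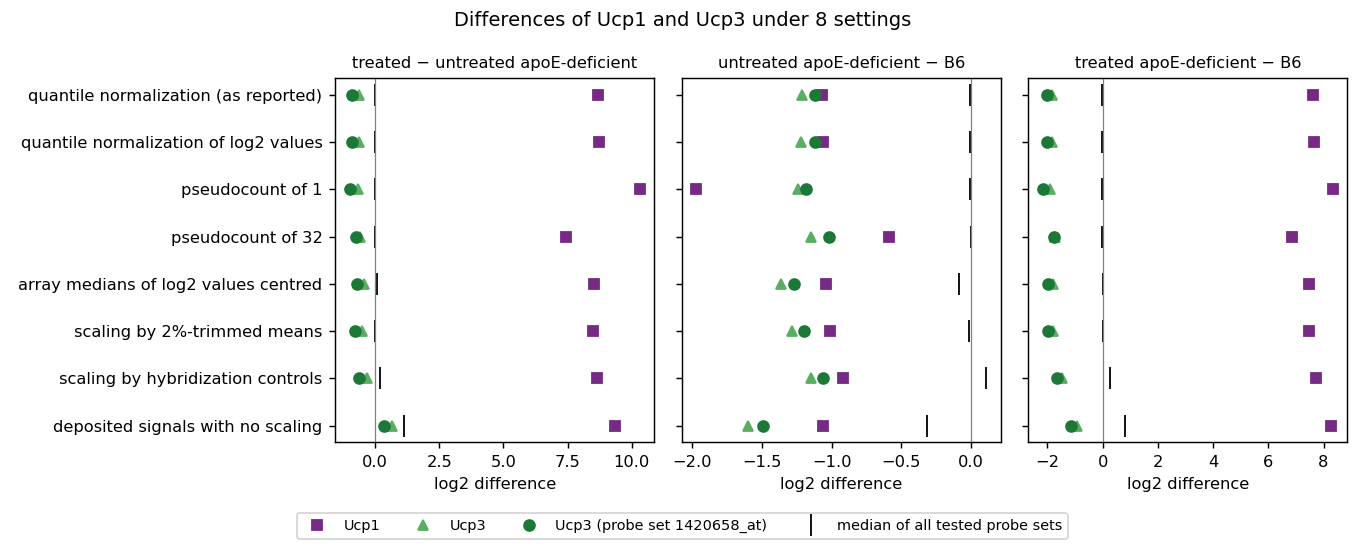
Log2 differences of Ucp1 and both Ucp3 probe sets in the 3 comparisons under 8 settings of scaling and pseudocount, with a bar at the median difference of all tested probe sets. Ucp1 stays far to the right in both comparisons of treated hearts, and both Ucp3 probe sets stay left of the bar in every setting shown, although without scaling they lie at 0.67 and 0.34 for treated minus untreated apoE-deficient hearts, right of 0.

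Other genes of brown adipocytes were only partly high where Ucp1 was high. Of 13 tested brown adipocyte genes besides Ucp1, 5 rose, 2 fell and 6 did not pass in treated against untreated apoE-deficient hearts, where 11.4% of all 13236 tested genes were called higher and 12.3% lower. Their median log2 difference was 0.05, against -0.03 over all tested genes. The split moved with the scaling: 6 rose and 4 fell with array medians centred or trimmed means, 7 rose and 3 fell with hybridization controls, and all 13 were called higher with no scaling. Cidea, a lipid droplet protein of brown fat, had log2 levels of 12.05 and 12.08 on treated arrays and 10.03 and 9.98 on untreated apoE-deficient arrays. It rose by 2.06 ± 0.05 (limma adjusted p = 4.06e-08), and its lowest treated level lay well above every untreated one. Elovl3, a fatty acid elongase induced in brown fat, rose by 2.89 ± 0.30 (adjusted p = 2.29e-04). Otop1, a proton channel of brown adipocytes, had log2 levels of 8.13 and 7.89 on treated arrays, 3.76 and 4.66 on untreated apoE-deficient arrays and 4.61 and 3.78 on B6 arrays. Like Ucp1, it passed the filter on dim probe sets only through the treated arrays, so it had to differ and nothing is read from its call. The other 2 called higher were Dio2, the deiodinase that activates thyroid hormone, by 1.02 ± 0.20, and S100b, by 1.55 ± 0.26. The call of Dio2 was lost without either treated array (limma adjusted p = 0.00651 with both), and that of S100b without treated replicate 1 (adjusted p = 0.00329 with both).

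The defining genes of the brown fat lineage did not pass this test or were too dim for it. The lineage factor Prdm16 had a log2 difference of -0.04 ± 0.15 (limma adjusted p = 0.904), and Ebf2, which marks brown preadipocytes, 0.47 ± 0.16 (adjusted p = 0.0677). Ebf2 did pass with array medians centred (0.67), trimmed means (0.60), hybridization controls (0.77) and no scaling (1.73), and Prdm16 with no scaling (1.23). Zic1 and Lhx8, markers of classical brown fat, were too dim to be tested, with log2 levels of at most 5.01 on every array. Ppargc1a, the coactivator that drives mitochondrial biogenesis and the Ucp1 gene, fell by 0.58 ± 0.07 (adjusted p = 5.56e-04). The potassium channel Kcnk3 fell by 0.20 ± 0.05 (adjusted p = 0.0155), a call lost without treated replicate 1 or either untreated apoE-deficient array. Cox7a1 and Cox8b, cytochrome oxidase subunits shared by brown fat and heart muscle, were bright on every array and differed by 0.01 ± 0.03 and -0.07 ± 0.03 (adjusted p = 0.833 and 0.22). Those small differences hold for quantile normalization: both genes were called lower with array medians centred (-0.67 and -0.79), trimmed means (-0.74 and -0.86) and hybridization controls (-0.56 and -0.68), and higher with no scaling (0.49 and 0.37). The summed normalized signal of the 15 brown adipocyte genes on the array was 35382 to 36331 on treated arrays, 32719 to 33086 on untreated apoE-deficient arrays and 31943 to 32535 on B6 arrays. Cox7a1 and Cox8b, with log2 levels from 13.59 to 13.84 over the arrays, made up most of each sum. The sums therefore say little about brown adipocytes.

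General adipocyte genes moved with Ucp1 as well. Of 14 tested, 10 rose, 1 fell and 3 did not pass in treated against untreated apoE-deficient hearts, with a median log2 difference of 1.20. Over all tested genes 11.4% were called higher and 12.3% lower there, with a median of -0.03. Adiponectin, Adipoq, a hormone secreted by adipocytes, rose by 5.09 ± 0.10 (limma adjusted p = 1.52e-08), and the lipid droplet protein Cidec by 4.94 ± 0.18 (adjusted p = 5.8e-07). Carbonic anhydrase Car3, abundant in fat, rose by 3.69 ± 0.06 (adjusted p = 5.72e-09), and the fatty acid binding protein Fabp4 by 1.09 ± 0.05 (adjusted p = 1.48e-06). Plin4, a lipid droplet coat protein also made in muscle, fell by 0.55 ± 0.06 (adjusted p = 2.32e-04). Leptin, Lep, made by white adipocytes, was too dim to be tested, with log2 levels of 4.59 and 4.65 on treated arrays, 5.00 and 4.93 on untreated apoE-deficient arrays and 3.74 and 4.81 on B6 arrays. The summed signal of the 16 adipocyte genes was 34561 to 34809 on treated arrays, 12219 to 12470 on untreated apoE-deficient arrays and 13183 to 13837 on B6 arrays. Fabp4 was already bright on untreated apoE-deficient and B6 arrays (log2 levels from 12.89 to 13.08) and made up most of the sum there. In heart tissue a change in the number of adipocytes and a change in transcript per cell cannot be told apart, and the part of fat attached to or within the hearts in the Ucp1 level was not tested.

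Airway secretory transcripts were also high on the treated arrays. Bpifa1, a secreted airway protein, had log2 levels of 12.80 and 12.82 on treated arrays, 4.56 and 3.75 on untreated apoE-deficient arrays and 4.14 and 4.33 on B6 arrays. The club cell secretoglobin Scgb1a1 had 11.71 and 11.97 on treated arrays, 3.64 and 4.94 on untreated apoE-deficient arrays and 4.26 and 4.52 on B6 arrays. Scgb3a2 and the club cell enzyme Cyp2f2 showed the same contrast. Of the 10 tested airway and lung genes, 6 passed the filter only through the treated arrays (these 4, Foxj1 and Aqp5), so nothing is read from how many of the list were called. Scgb3a1, which did not depend on them to pass, rose by 4.10 ± 0.20 against untreated apoE-deficient hearts (limma adjusted p = 3.41e-06). The alveolar surfactant protein Sftpc had log2 levels of 6.21 and 6.18 on treated arrays, 5.83 and 5.31 on untreated apoE-deficient arrays and 5.63 and 5.06 on B6 arrays, and did not pass (adjusted p = 0.226). Summed over 14 genes, airway and lung signal was 15973 to 16900 on treated arrays, 294 to 388 on untreated apoE-deficient arrays and 256 to 309 on B6 arrays.

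Lymphocyte genes summed to 2226 to 2521 on treated arrays, 996 to 1089 on untreated apoE-deficient arrays and 815 to 878 on B6 arrays, but did not move together. Of 11 tested in treated against untreated apoE-deficient hearts, 3 rose, 2 fell and 6 did not pass. Of these 11, 4 passed the filter only through the treated arrays (Cd3g, Cd79b, Ms4a1 and Il2rb), so nothing is read from the counts. The antibody chains Ighm and Jchain rose by 3.52 ± 0.23 and 3.09 ± 0.26 (limma adjusted p = 1.75e-05 and 8.55e-05), and Cd79b, a part of the B cell receptor that passed the filter only through the treated arrays, was the third. The T cell coreceptor Cd8a fell by 1.16 ± 0.20 and Cd52 by 0.55 ± 0.12 (adjusted p = 0.00413 and 0.0125). The part of airway tissue or lymphocytes in the Ucp1 level was not tested.

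The same lists were counted in treated against B6 hearts, where 8.78% of tested genes were called higher and 9.87% lower. Of the brown adipocyte genes 5 rose and 4 fell, and of the adipocyte genes 12 rose and 1 fell. The 5 include Otop1, which passed the filter only through the treated arrays. Cidea rose by 2.12 ± 0.05, Elovl3 by 3.86 ± 0.30 and Adipoq by 4.23 ± 0.10 (limma adjusted p from 5.83e-08 to 5.14e-05). Prdm16 differed by -0.53 ± 0.15 (adjusted p = 0.0472), a call lost under each other way of scaling except quantile normalization of log2 values.

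In untreated apoE-deficient against B6 hearts, where 3.85% of tested genes were called higher and 4.66% lower, 4 adipocyte genes fell and most did not pass. Of 14 tested 0 rose, 4 fell and 10 did not pass in limma, with a median log2 difference of -0.04; at an unadjusted p under 0.05, 2 were higher and 5 lower. Adipoq had log2 levels of 6.58 and 6.62 on untreated apoE-deficient arrays and 7.56 and 7.36 on B6 arrays, and fell by 0.86 ± 0.10 (limma adjusted p = 0.00187). Car3 fell by 0.83 ± 0.06 and hormone-sensitive lipase Lipe by 0.38 ± 0.10 (adjusted p = 1.43e-04 and 0.047), the call of Lipe being lost whichever array was left out. Cidec also fell, with log2 levels of 4.71 and 4.71 on untreated apoE-deficient arrays and 5.68 and 5.75 on B6 arrays (adjusted p = 0.0132), a call lost without B6 replicate 2 or either treated array. Retn, Sncg and Nnat had higher values in untreated apoE-deficient hearts (1.07 ± 0.39, 0.54 ± 0.17 and 0.49 ± 0.39) and did not pass. Between B6 replicate 1, where Ucp1 was higher, and B6 replicate 2, Adipoq differed little (log2 levels 7.56 and 7.36) and Cidea was at 9.95 on both. Other members of these lists differed more and in either direction, such as Elovl3 (5.73 and 4.72) and Retn (4.33 and 5.62). The part of fat in the Ucp1 level of these arrays was not tested. In a fit with no intensity trend, 0 members of the 12 lists passed limma's adjusted threshold in this comparison, and 40 of 158 tested genes had an unadjusted p under 0.05.

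**Figure D3:**
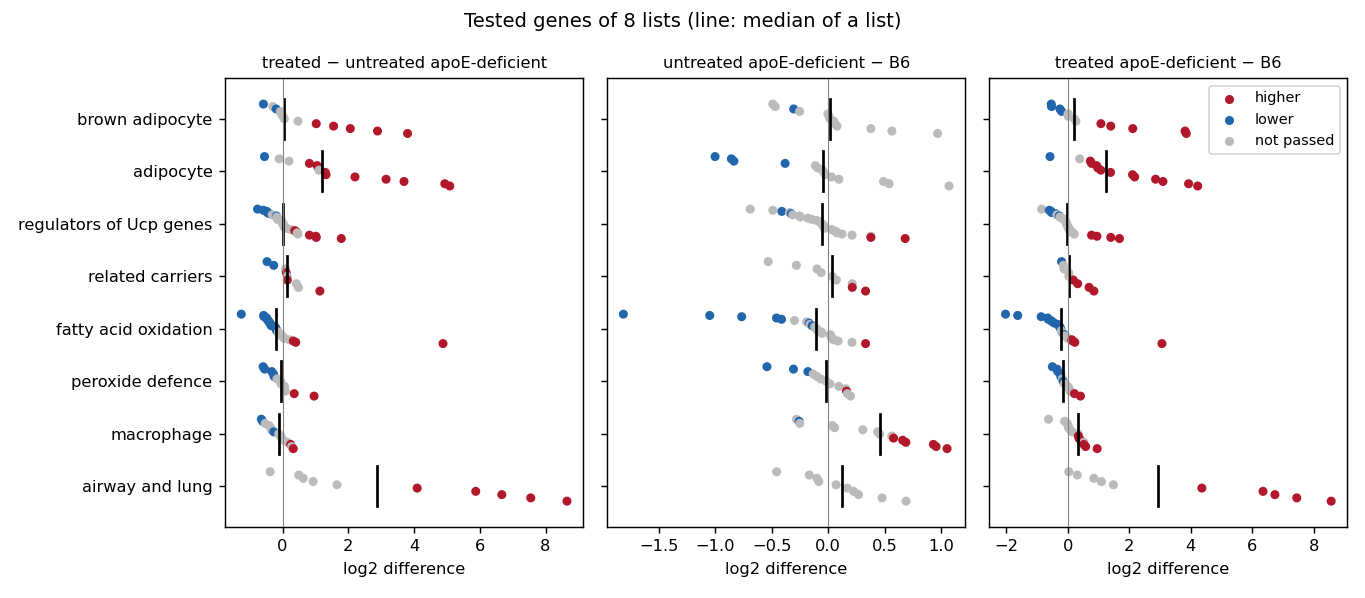
Log2 differences of the tested genes of 8 lists in the 3 comparisons, 1 point per gene, coloured by limma's call at an adjusted p under 0.05, with a line at each list's median. In treated minus untreated apoE-deficient hearts the adipocyte median lies at 1.20 and that of brown adipocyte genes at 0.05, with 5 of the latter called higher. Otop1, 1 of these 5, is tested only because treated arrays are high. Of the 10 airway and lung genes, 6 are tested only because treated arrays are high.

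Fatty acid oxidation genes, whose transcripts Ucp3 usually accompanies in muscle, were more often lower than higher where Ucp3 was lower. In treated against untreated apoE-deficient hearts 3 of 24 tested genes rose, 14 fell and 7 did not pass, with a median log2 difference of -0.20. Against B6 hearts 4 rose and 14 fell in treated hearts (median -0.22), and 1 rose and 7 fell in untreated apoE-deficient hearts (median -0.11). Over all tested genes 11.4%, 8.78% and 3.85% rose and 12.3%, 9.87% and 4.66% fell in these comparisons, in the same order. With no intensity trend the counts of the list that fell were 3, 5 and 0. With array medians centred, trimmed means or hybridization controls, 2 rose and 19 to 21 fell in treated against untreated apoE-deficient hearts, and 1 rose and 16 to 21 fell in treated against B6 hearts. With no scaling 23 were called higher and 0 lower in the first of these, and 10 higher and 2 lower in the second. Between the untreated groups hybridization controls gave 8 higher and 5 lower. The summed signal of the list was 146528 to 147239 on treated arrays, 153576 to 153786 on untreated apoE-deficient arrays and 160361 to 161691 on B6 arrays.

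Pdk4, the kinase that shuts down glucose oxidation when fatty acids are plentiful, followed the same order as Ucp3. Its log2 levels were 10.88 and 10.96 on treated arrays, 11.49 and 11.50 on untreated apoE-deficient arrays, and 12.54 and 12.55 on B6 arrays. It fell by 0.58 ± 0.04 in treated against untreated apoE-deficient hearts (limma adjusted p = 4.09e-05), by 1.05 ± 0.04 in untreated apoE-deficient against B6 hearts (adjusted p = 4.3e-06) and by 1.62 ± 0.04 in treated against B6 hearts (adjusted p = 1.08e-07). The acyl-CoA thioesterase Acot1, named after its values were seen, differed by -1.25 ± 0.17, -0.77 ± 0.17 and -2.02 ± 0.17 in the same comparisons (limma adjusted p = 0.00117, 0.0338 and 1.06e-04), and lost its second call without any 1 of the untreated apoE-deficient or B6 arrays. The lipid droplet protein Plin5 differed by -0.19 ± 0.05, -0.46 ± 0.05 and -0.65 ± 0.05 (adjusted p = 0.0328, 0.00187 and 7.89e-05), and lost its first call without any 1 of the apoE-deficient arrays.

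Angptl4 parted from Ucp3 in treated hearts. Angptl4, an inhibitor of lipoprotein lipase under PPAR control, rose by 4.88 ± 0.21 in treated against untreated apoE-deficient hearts (limma adjusted p = 1.42e-06) and fell by 1.81 ± 0.21 in untreated apoE-deficient against B6 hearts (adjusted p = 0.00172). Eci1, an isomerase of unsaturated fatty acid breakdown, fell by 0.48 ± 0.04 in treated against untreated apoE-deficient hearts (adjusted p = 4.11e-05), fell by 0.54 ± 0.04 in treated against B6 hearts (adjusted p = 2.53e-05), and differed by -0.06 ± 0.04 in untreated apoE-deficient against B6 hearts (adjusted p = 0.376). Cpt2, which takes long-chain fatty acids into the matrix, fell by 0.38 ± 0.04 in treated against untreated apoE-deficient hearts and by 0.49 ± 0.04 in treated against B6 hearts (adjusted p = 1.83e-04 and 5.14e-05), and differed by -0.11 ± 0.04 between the untreated groups (adjusted p = 0.13). Both thus fell with Ucp3 in the comparisons of treated hearts, and neither passed between the untreated groups. The fatty acid transporter Cd36 had a difference of 0.40 ± 0.04 in treated against untreated apoE-deficient hearts (adjusted p = 1.46e-04), which turned sign with array medians centred or trimmed means.

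Skeletal muscle, where Ucp3 is most abundant, left little signal on the arrays. Of 13 marker genes on the array 7 passed the filter, and 0 passed limma's test in treated against untreated apoE-deficient hearts (median log2 difference -0.47, 3 lower at an unadjusted p under 0.05). The fast myosin chains Myh1, Myh2 and Myh4 and the genes Tnnt3, Tnnc2 and Myf6 were too dim to be tested. The summed signal was 513 to 528 on treated arrays, 687 to 730 on untreated apoE-deficient arrays and 539 to 556 on B6 arrays, close to the floor of the scale. The 12 heart muscle markers summed to 175087 to 180825 on treated arrays, 179143 to 180771 on untreated apoE-deficient arrays and 188626 to 189277 on B6 arrays. In treated against untreated apoE-deficient hearts 3 of them were called higher and 4 lower, where 11.4% of all tested genes were called higher and 12.3% lower. The counts were 0 higher and 10 or 11 lower with array medians centred, trimmed means or hybridization controls. With no scaling they were 8 higher and 0 lower. Macrophage genes summed to 11112 on both treated arrays, 11082 to 11400 on untreated apoE-deficient arrays and 8897 to 8905 on B6 arrays, and in untreated apoE-deficient against B6 hearts 6 of 15 rose, 1 fell and 8 did not pass, where 3.85% of all genes rose and 4.66% fell. Lyz2 rose by 0.58 ± 0.04 and Csf1r, the receptor of a macrophage growth factor, fell by 0.26 ± 0.05 (limma adjusted p = 9.93e-05 and 0.0242). With no scaling 0 of the 15 passed. The part of these cells in the Ucp3 level was not tested.

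Of the receptors and factors known to regulate the Ucp genes, 27 were tested. In treated against untreated apoE-deficient hearts 6 rose, 6 fell and 15 did not pass, with a median log2 difference of 0.00. Over all tested genes 11.4% rose and 12.3% fell. The adipogenic factor Cebpa rose by 1.79 ± 0.11 (limma adjusted p = 1.15e-05) and the lipogenic factor Srebf1 by 1.01 ± 0.07 (adjusted p = 3.52e-05). Pparg, the receptor of the drug, rose by 0.82 ± 0.17 (adjusted p = 0.0104), a call lost without treated replicate 1 or untreated apoE-deficient replicate 2. Esrra, a nuclear receptor of oxidative genes, rose by 0.37 ± 0.10, and the corepressor Nrip1 by 0.42 ± 0.09 (adjusted p = 0.0316 and 0.00883), calls lost without either treated array, and that of Esrra also without either B6 array or without replicate 1 of the untreated apoE-deficient group. With no intensity trend 3 regulators rose and 1 fell, and with hybridization controls 12 rose and 2 fell.

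Ppara and Ppard are receptors through which Ucp3 responds to fatty acids in muscle, and their part in the Ucp3 level was not tested. Both fell in treated against untreated apoE-deficient hearts but did not pass in treated against B6 hearts. Ppara fell by 0.41 ± 0.09 (limma adjusted p = 0.0119) and Ppard by 0.76 ± 0.16 (adjusted p = 0.0087), and their partner Rxrg fell by 0.47 ± 0.09 (adjusted p = 0.00574). In treated against B6 hearts Ppara differed by -0.20 ± 0.09 and Ppard by -0.08 ± 0.16 (adjusted p = 0.201 and 0.813), while Rxrg fell by 0.39 ± 0.09 (adjusted p = 0.0172). The call of each was lost with scaling by hybridization controls, and those of Ppara and Ppard also without 1 treated array or untreated apoE-deficient replicate 2. Cebpb, a factor of early adipocyte differentiation, fell by 0.48 ± 0.09, and the kinase Mapk14 by 0.19 ± 0.06 (adjusted p = 0.00459 and 0.049), the call of Mapk14 being lost whichever array was left out.

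Between the untreated groups the 2 regulators that rose in apoE-deficient hearts were Ppard, by 0.68 ± 0.16, and Cebpb, by 0.38 ± 0.09 (limma adjusted p = 0.0339 and 0.0346). The 2 that fell were Mapk14, by 0.41 ± 0.06, and the thyroid hormone receptor Thra, by 0.33 ± 0.07 (adjusted p = 0.00448 and 0.0254). The calls of Ppard, Cebpb and Thra were lost without any 1 of the untreated apoE-deficient or B6 arrays, and Mapk14 turned sign with the mean of all its probe sets. The other 23 did not pass, where 3.85% of all tested genes rose and 4.66% fell. In treated against B6 hearts 4 regulators rose, 5 fell and 18 did not pass, where 8.78% of all tested genes rose and 9.87% fell.

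Related mitochondrial carriers of the Slc25 family, to which the uncoupling proteins belong, showed no common direction. Of 9 tested, 3 rose, 2 fell and 4 did not pass in treated against untreated apoE-deficient hearts, with a median log2 difference of 0.14. Over all tested genes 11.4% rose and 12.3% fell. The citrate carrier Slc25a1, which exports citrate for lipid synthesis, rose by 1.14 ± 0.14 (limma adjusted p = 6.91e-04). The oxoglutarate carrier Slc25a11 fell by 0.27 ± 0.04 (adjusted p = 0.00107) and the carnitine carrier Slc25a20 by 0.47 ± 0.07 (adjusted p = 0.00139). The ADP/ATP carriers Slc25a4 and Slc25a5, which are also known to leak protons, differed by 0.14 ± 0.03 and 0.11 ± 0.03 (adjusted p = 0.00556 and 0.0408), values that turned sign with array medians centred, trimmed means or hybridization controls. With no intensity trend Slc25a1 alone of the 9 passed, and with each of those 3 scalings 2 rose and 5 fell.

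Slc25a27 and Slc25a30, related carriers called Ucp4 and Kmcp1 in older nomenclature, did not pass in treated against untreated apoE-deficient hearts. They differed by 0.42 ± 0.40 and 0.48 ± 0.17 in log2 level (limma adjusted p = 0.519 and 0.0763). Slc25a30 did pass with array medians centred (0.68), trimmed means (0.61), hybridization controls (0.78) and no scaling (1.75), and Slc25a27 with no scaling (1.20). Slc25a30 rose by 0.70 ± 0.17 in treated against B6 hearts (adjusted p = 0.0225), a call lost without any 1 of the treated or B6 arrays. Slc25a14 was too dim to be tested. In untreated apoE-deficient against B6 hearts 2 carriers rose, Slc25a20 by 0.33 ± 0.07 and Slc25a5 by 0.21 ± 0.03 (adjusted p = 0.0226 and 0.00714), calls lost without untreated apoE-deficient replicate 1 or B6 replicate 1, and 7 did not pass. In treated against B6 hearts 4 rose, 1 fell and 4 did not pass. Over all tested genes 8.78% rose and 9.87% fell there, and 3.85% and 4.66% did between the untreated groups.

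Genes of mitochondrial peroxide and redox defence, a process often set beside uncoupling, also split. In treated against untreated apoE-deficient hearts 2 of 13 rose, 5 fell and 6 did not pass. Over all tested genes 11.4% rose and 12.3% fell in that comparison. Catalase, Cat, rose by 0.96 ± 0.10 (limma adjusted p = 2.53e-04). With array medians centred or trimmed means 2 rose and 8 fell, and with hybridization controls 3 rose and 7 fell. The NADPH-producing enzymes Me3 and Idh2 fell by 0.59 ± 0.06 and 0.54 ± 0.05 (adjusted p = 2.47e-04 and 1.97e-04). In untreated apoE-deficient against B6 hearts 1 rose and 3 fell, and in treated against B6 hearts 2 rose and 6 fell. The shares over all tested genes were 3.85% higher and 4.66% lower in the former, and 8.78% and 9.87% in the latter.

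Heat can be made without Ucp1, by futile calcium, creatine and glycerol phosphate cycles. Of 13 tested genes of such cycles, 5 rose, 0 fell and 8 did not pass in treated against untreated apoE-deficient hearts (1 lower at an unadjusted limma p under 0.05), with a median log2 difference of 0.51. Over all tested genes 11.4% rose and 12.3% fell. Sarcolipin, Sln, which uncouples the calcium pump of the sarcoplasmic reticulum, rose by 2.17 ± 0.06 (limma adjusted p = 7.59e-08). Mitochondrial glycerol phosphate dehydrogenase Gpd2 rose by 1.63 ± 0.10 (adjusted p = 1.55e-05) and brain-type creatine kinase Ckb by 0.88 ± 0.06 (adjusted p = 1.68e-05). The other 2 were the calcium pump Atp2a3, by 0.98 ± 0.20 (adjusted p = 0.00862), and mitochondrial creatine kinase Ckmt2, whose difference of 0.56 ± 0.03 turned sign with array medians centred, trimmed means or hybridization controls. With array medians centred or trimmed means 4 of the list rose and 4 fell. In untreated apoE-deficient against B6 hearts Sln fell by 1.33 ± 0.06 (adjusted p = 5.64e-06). Nppa of the heart muscle list moved in the same directions as Sln, by 0.77 ± 0.03 and -0.53 ± 0.03. Its first difference was only 0.04 with array medians centred, and 4 markers of that list fell there. Atp2a2 and Ryr2 are on both lists. Whether heat was made, and the part of heart muscle or its chambers in these levels, was not tested.

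The genes whose pattern over the 6 arrays was most like that of Ucp1 included 3 of the adipocyte list. Among 2784 genes with a log2 range of at least 1, the 8 highest Pearson correlations with Ucp1 were Fabp4 (0.997), Fscn1 (0.997), Reg3g (0.995), Cd300lg (0.995), Adipoq (0.995), Acaa1b (0.995), Pck1 (0.995) and Prxl2a (0.994). Fabp4, Adipoq and the glyceroneogenic enzyme Pck1 belong to the adipocyte list, Acaa1b is a peroxisomal thiolase and Reg3g an antimicrobial lectin of epithelia. Their log2 ranges differed widely, from 1.11 for Fscn1 to 5.47 for Acaa1b. Reg3g and Acaa1b, like Ucp1, passed the filter on dim probe sets only through the treated arrays, so nothing is read from their likeness. In all, 149 genes correlated above 0.95 and 20 above 0.99, a number that 2 high arrays among 6 make easy to reach.

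For Ucp3 the closest were Mycn (0.995), Bcam (0.988), Kcne1 (0.988), Afdn (0.986), Lgals4 (0.986), Slc25a37 (0.982), Arrdc2 (0.981) and Pdk4 (0.980). Kcne1 is a potassium channel subunit, Slc25a37 the mitochondrial iron carrier, and Pdk4 the only one of the 8 from the fatty acid oxidation list. All 8 were lowest on treated arrays and highest on B6 arrays, an order built into their choice by correlation with Ucp3. Their log2 ranges went from 1.03 to 1.73. Only 13 genes correlated above 0.95 with Ucp3. These correlations are over n = 6 arrays that share normalization and groups, and carry no test.

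**Figure D4:**
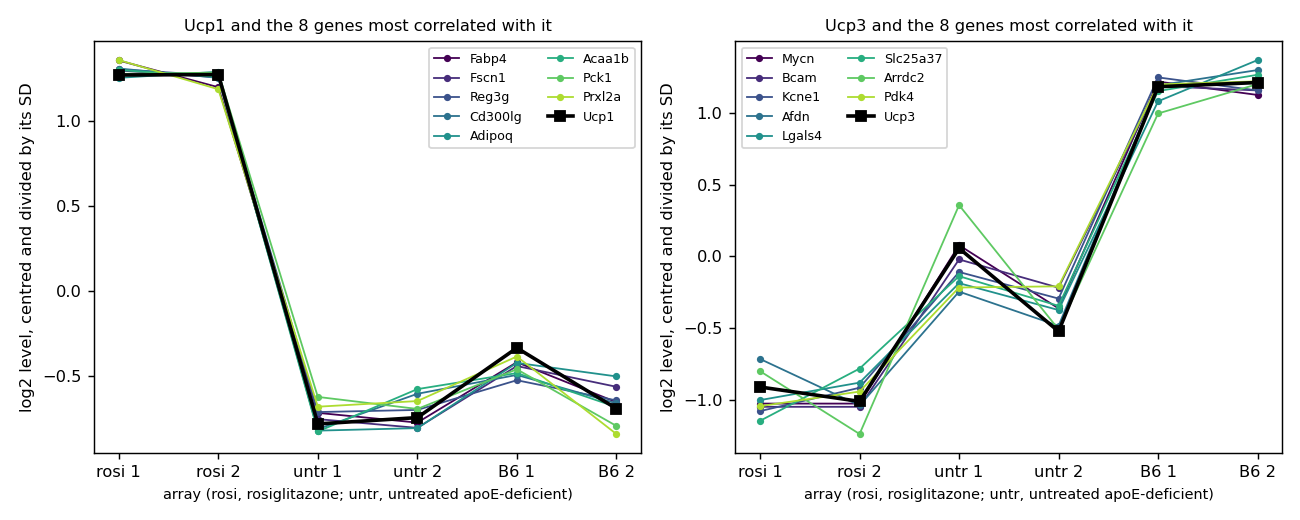
Log2 level of Ucp1 (left) and Ucp3 (right) and of the 8 genes most correlated with each, over the 6 arrays, each gene centred and divided by its SD. Both treated arrays are high and the other 4 low for Ucp1 and its 8 genes, while Ucp3 and its 8 genes are lowest on treated arrays and highest on B6 arrays.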

How the data were processed

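Per the labels' protocols, biotinylated cRNA was prepared from total RNA of mouse hearts for Affymetrix arrays. Values deposited by the authors are linear intensities, 1 for each probe set on each array. Only GCOS is named in the submitters' processing notes, and how it was set (version, background, scaling) is not given in the sources used here. The members, lists and tests were chosen with earlier results of these data known.

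Of 45101 probe sets 64 controls were left out. The linear intensities of the other 45037 were quantile-normalized, 11.1 (the 25th percentile of all values) was added and log2 taken. Probe sets with a mean log2 level above the 40th percentile (4.993), 27022 in all, were tested with lmFit and eBayes of limma 3.58.1 (R 4.3.3), with the prior variance following intensity, in 1 fit of 3 groups over 6 arrays, with 3 residual and 5.97 prior degrees of freedom and Benjamini-Hochberg adjustment over all tested probe sets. A probe set passed at an adjusted p under 0.05. The fit was tried on simulated data.

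The array annotation, which can be old, gives 34945 probe sets 1 symbol, 932 several and 9160 none. Symbols of 34741 were updated through a RefSeq gene table of GRCm38.p6, which also gave the promoters of both genes. A gene is represented by its brightest probe set (13236 genes tested). Genes were named by a rule: from each list up to 4 with the smallest p per comparison, every one where 5 or fewer were called in a direction, any related carrier or regulator, and the 8 genes most correlated with each member. The text names fewer, and Acot1 and the members named as dim, as not passed or as defining a cell type were picked after their values were seen. Members were described without a test, lists by counts and medians. Replicate numbers did not pair the arrays: deviations of same-numbered arrays from their group means correlated at -0.006, 0.033 and 0.02. Arrays of a group correlated at 0.987 (treated), 0.968 (untreated apoE-deficient) and 0.977 (B6). No array was left out, and probe sets of Ucp2 were not analysed here.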

Additional observations from a re-analysis of the deposited data

How the results depend on the processing

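Ucp1 in treated hearts kept its direction under every alternative run, and both Ucp3 probe sets kept theirs against B6 hearts. With no scaling Ucp1 differed by 9.34 (treated minus untreated apoE-deficient) and 8.28 (treated minus B6), Ucp3 by 0.67 (second probe set 0.34), by -1.60 between the untreated groups and by -0.93 against B6 in treated hearts, and 22739 (treated minus untreated apoE-deficient) and 18723 (treated minus B6) probe sets were called. With scaling by hybridization controls Ucp3 differed by -0.33 (treated minus untreated apoE-deficient) and -1.48 (treated minus B6), and 3039 probe sets were called between the untreated groups and 7604 for treated minus B6. The median of all differences then moved to 0.181, 0.109 and 0.284, against 1.135, -0.319 and 0.815 with no scaling. A pseudocount of 1 gave Ucp1 differences of 10.31, -1.97 and 8.34, and one of 32 gave 7.44 and 6.85 in the comparisons of treated hearts. With no intensity trend 1653, 10 and 626 probe sets were called, against 5355, 1909 and 4066. Of the calls, 50.5%, 44.8% and 49.6% were higher, against 99.9%, 4.65% and 99.7% with no scaling, 64.7%, 25.7% and 45.8% with medians centred and 79.6%, 80.9% and 92.5% with hybridization controls. The cause of these shifts was not tested.

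Leaving out 1 array at a time, calls ranged from 2944 to 4996, 614 to 1729 and 2192 to 4120. Ucp3 ranged from -0.86 to -0.37 for treated minus untreated apoE-deficient and from -1.46 to -0.97 for untreated apoE-deficient minus B6, and Ucp1 from -1.83 to -0.31 for untreated apoE-deficient minus B6 and from 6.86 to 8.39 for treated minus B6. The lone array of a group is assumed to vary like the others. With the replicate number as a block, 5344, 1937 and 4103 probe sets were called and Ucp1 stayed at 8.69, -1.07 and 7.62 and Ucp3 at -0.62, -1.21 and -1.83. Of 612 counts of list members under alternatives, 475 were within 1.5 times the reported count, 100 were lower and 37 higher. Alternatives planned for Ucp2 were not run.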
